A study of Rattus norvegicus with 3 samples.

Results

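The cells described here are the 179 cells that the authors' clustering of the stromal library named B cell, out of 13226 annotated cells of that library (1.35%, with an exact Clopper-Pearson 95% interval of 1.16% to 1.57%). They are the whole of the authors' cluster 14, and they were chosen by that name alone. The library came from thymi of Lewis rats, which are inbred, taken at 8 weeks of age with no treatment or genetic change named in the labels. Thymus was digested and cells lacking CD45, which blood-derived cells carry on their surface, were kept by sorting, so any B cell in this library passed a gate meant to remove it. A second library from rats of the same strain and age held thymocytes and was not sorted in this way. A spatial section was the third sample. Its deposited tables each hold 31 label names, of which 0 name B cells, so the section gave no values for these cells. Each group was 1 sample, so no test was run, no p-value is given, and all intervals are 95% intervals that cover counting error only.

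B cells develop in steps that can be read from their transcripts. Precursors in the bone marrow rearrange the heavy chain gene with the enzymes Rag1 and Rag2 and, at the earliest steps, add bases at the joins with Dntt (terminal transferase). A successful heavy chain is tested in the pre-B cell receptor, in which Igll1 (lambda 5) and the VpreB proteins stand in for the light chain as a surrogate light chain and Cd79a and Cd79b carry the signal. Cells with this receptor divide, then stop dividing and express the Rag genes again to rearrange a light chain. Mature B cells carry Ms4a1 (CD20), the complement receptor Cr2 and the chemokine receptors Cxcr5 and Ccr6, and present antigen on class II molecules. The thymus is known to hold a small B cell population.

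The label was mixed. Summed over 8 genes that mark B cells at most stages (called pan-B genes here, among them Cd79a, Cd79b, Cd22, Cd72, Pax5, Pou2af1 and Fcrla), 103 of the 179 cells had at least 3 UMIs (unique molecular identifiers, which stand for single RNA molecules caught from a cell); the median was 41 and the highest count 104. The other 76 cells had 0 (74 cells) or 1 (2 cells). No cell had 2, the cells just inside the threshold were 2 cells with 3 UMIs, and the next had 8. The 103 cells are 57.5% of the label (49.9% to 64.9%) and 0.779% of annotated stromal cells. This division was made after the values had been seen, so the pan-B genes are a description of it and support nothing. The results below are given for both the 179 labelled cells and the 103 cells, called pan-B cells.

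The 76 cells without pan-B UMIs carried transcripts of other cell types. At least 10 UMIs of the fibroblast list (collagens, Dcn, Lum and the Pdgf receptors) were found in 48 of them, with a median of 462 in those cells. At least 10 UMIs of the epithelial list were found in 19 cells, of the T cell list without Cd3g in 11, of the endothelial list in 3, of the erythroid list in 2 and of the myeloid list in 0. More than 1 list reached that count in 9 cells and none did in 2. All 76 had a UMI of the 6-gene cycling set (Mki67, Top2a, Cdk1, Ccnb2, Birc5 and Ube2c), and none had a UMI of Igll1 or of either VpreB gene, which allows a share of cells with such a UMI of up to 3.95% (3 counts of the total). Their G2/M list level, the summed UMIs of 51 genes scaled to 1000000 UMIs of the cells (CPM), was 13923 (13725 to 14123), against 636 in the 8216 cells of the 5 fibroblast labels. Of the pan-B cells, 85 of 103 stayed under 10 UMIs of each of these lists, while 9 reached it for the fibroblast, 5 for the epithelial and 4 for the T cell list.

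**Figure D1:**
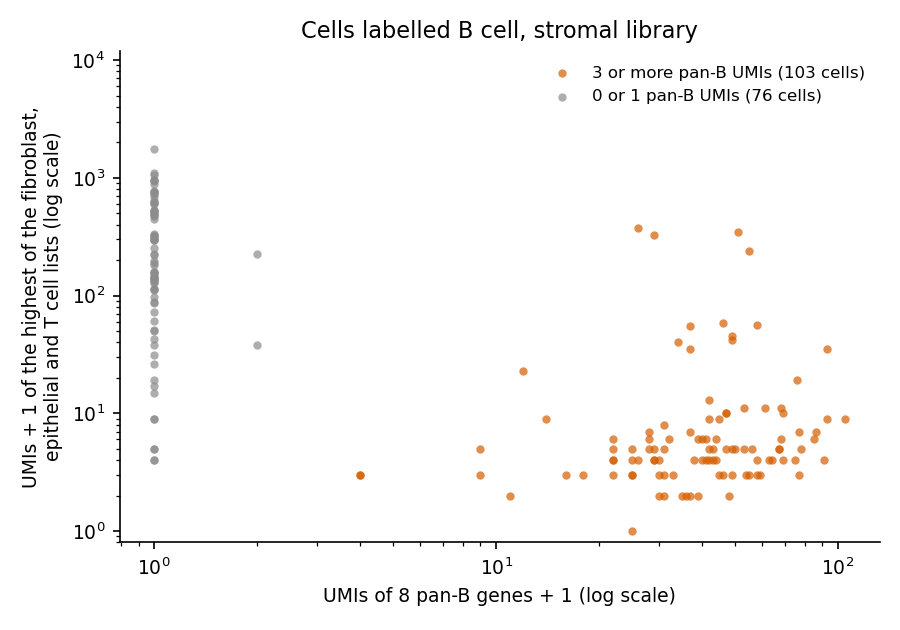
UMIs of the 8 pan-B genes (x axis, log scale, 1 added) against UMIs of whichever of the fibroblast, epithelial and T cell lists was highest (y axis, log scale, 1 added, Cd3g left out) for the 179 labelled cells, 1 point per cell. The 103 pan-B cells lie apart from the 76 cells with 0 or 1 pan-B UMIs, and most of the 76 lie high on the y axis.

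Depth differed between these sets. The 179 cells had a median of 14761 UMIs (1151 to 55374), the 103 pan-B cells 13023 and the 76 others 17127.5, against 9056 for the other annotated cells. The median share of mitochondrial UMIs was 0.769% in the pan-B cells. The 2 libraries share 38 of 16160 and 8574 barcodes, 0 of them labelled B cell. Outside the label, at least 3 pan-B UMIs were found in 23 of 13047 annotated cells (0.176%), of which 14 were in 1 epithelial cluster of 374 cells, and in 3 of 8216 fibroblast-labelled cells (0.0365%).

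Igll1 and Cd79a stood highest in the label relative to other labels. Among the 179 cells, 1.56% of 5124 genes tested lay at least 3-fold above the highest other label of at least 50 cells, and among the 103 pan-B cells 3.61% of 2884. Igll1 led both rankings, at 377 CPM (355 to 400) in the labelled cells and 716 CPM (674 to 761) in the pan-B cells. All other annotated cells together held 22 UMIs of Igll1 in 17 cells. The label with the highest limit, 90 endothelial cells, held 0, and against a floor of 3 UMIs in that label Igll1 was at least 101-fold higher in the labelled cells and at least 191-fold higher in the pan-B cells. Cd79a, the signalling chain of the B cell receptor, had 1756 UMIs in 101 of the 179 cells, and all but 1 of these UMIs lay in pan-B cells. In the pan-B cells Cd79a reached 1169 CPM (1115 to 1225), and the next label, thymocytes, reached 6.99 CPM.

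The other leading genes of the pan-B cells were Cd79b, the partner of Cd79a (342 CPM, in 97 cells), Vpreb3, a chaperone of the precursor receptor (437 CPM, in 92 cells), the Src-family kinase Blk (169 CPM, in 76 cells), the transcriptional coactivator Pou2af1 (215 CPM), the B-lineage transcription factor Pax5 (482 CPM) and Fcrla (324 CPM). Jchain, the joining chain of polymeric antibodies (743 CPM, in 75 cells), and Mzb1, a chaperone of antibody assembly (194 CPM, in 63 cells), stood in the same ranking with Tmprss3, Rpl3l, Pou2f2, a feature named Ighv, and Niban3. In the ranking of all 179 cells Mxd3 took the place of Niban3. A label against the rest of the cells it was clustered with is a description and no test. Cd79a, Cd79b, Pax5, Pou2af1 and Fcrla were also used in the division, so their levels in the pan-B cells support nothing. Of the genes not used in the division, Ebf1, a transcription factor of early B cells, stood at 5606 CPM in the pan-B cells, 834 in the 76 others and 1246 in the fibroblast labels. Blnk, an adaptor of the pre-B cell receptor, stood at 771 CPM in 101 pan-B cells and at 1.48 CPM in the 76 others.

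Precursor genes were abundant. The precursor list of 20 genes had a level of 3479 CPM (3411 to 3548) in the 179 cells and 5833 CPM (5711 to 5956) in the 103 pan-B cells, and 16 of its 20 genes had at least 20 UMIs in the latter. The mature list, with 19 of its 20 genes measured, had a level of 450 CPM (426 to 475) in the labelled cells and 728 CPM (685 to 772) in the pan-B cells, and 8 of the 19 genes had at least 20 UMIs. In cells of this library labelled thymocytes the precursor list stood at 5090 CPM (4983 to 5197) and the mature list at 442 CPM (411 to 474). The per-cell median of the precursor list was 6882 CPM there and 5668 CPM in the pan-B cells, so its level is not particular to B-lineage cells. The 2 lists hold different genes, so their levels are not set against each other as abundance of a stage. Only genes abundant in the pan-B cells themselves were ranked (100 or more UMIs, detected in 25% of these cells). This kept 10 of 20 precursor genes and 2 of 19 mature genes. Of the 10, 5 (Igll1, Vpreb3, the interleukin 7 receptor Il7r, Bach2 and Tcf3) lay at least 3-fold above the highest other label. The background was 3.61%. Of the 2 mature genes 0 did. Since the filter removed most mature genes for being sparse in these cells, the 2 counts are not compared and decide nothing on stage.

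The surrogate light chain marks the stage at which a heavy chain is tested, and its 3 genes were found in overlapping sets of cells. The files name the VpreB genes Vpreb1a and Vpreb1b, for which RefSeq's gene table of GRCr8 lists Vpreb1 and Vpreb2 as synonyms. The bases before the start of each gene are shown because these 3 genes are the ones that separate the precursor cells below and because 2 of them are close copies. They come from RefSeq's promoter table of build GRCr8, while the authors' counts used mRatBN7.2, and each runs from 250 bases before the annotated start to the base before it, at chr11:97642937-97643186 on the + strand for Igll1, chr11:97630924-97631173 on the + strand for Vpreb1a and chr11:96514405-96514654 on the - strand for Vpreb1b. Capitals mark matches to CCCNNGGG, the core of the EBF motif, or to CAGGTG, an E-box, on either strand; the octamer ATGCAAAT, also searched, has no match in these 3 windows.
Igll1: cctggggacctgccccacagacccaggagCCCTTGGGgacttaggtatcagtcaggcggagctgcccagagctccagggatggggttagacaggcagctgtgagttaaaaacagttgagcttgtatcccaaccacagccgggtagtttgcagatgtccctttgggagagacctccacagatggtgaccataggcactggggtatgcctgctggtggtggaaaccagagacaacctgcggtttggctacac
Vpreb1a: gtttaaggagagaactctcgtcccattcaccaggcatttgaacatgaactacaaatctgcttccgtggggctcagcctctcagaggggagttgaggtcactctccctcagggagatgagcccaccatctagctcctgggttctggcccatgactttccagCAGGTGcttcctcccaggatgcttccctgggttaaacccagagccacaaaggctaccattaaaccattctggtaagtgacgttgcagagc
Vpreb1b: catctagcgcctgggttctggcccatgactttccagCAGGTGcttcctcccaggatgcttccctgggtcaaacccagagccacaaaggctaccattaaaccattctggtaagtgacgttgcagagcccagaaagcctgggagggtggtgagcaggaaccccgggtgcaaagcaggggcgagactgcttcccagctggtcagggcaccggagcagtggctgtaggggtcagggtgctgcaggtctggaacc

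The Igll1 window holds 1 match to the EBF core, CCCTTGGG, which begins 221 bases before the start. Each VpreB window holds 1 match to CAGGTG, which begins 90 bases before the start of Vpreb1a and 214 bases before that of Vpreb1b. Over all 33469 windows of the same length in the table, 10.8% hold CCCNNGGG, 15.9% hold CAGGTG and 1.56% hold the octamer, so these matches are common and say nothing of binding. Aligned without gaps at an offset of 124 bases, the 2 VpreB windows are identical at 124 of 126 bases (98.4%), so the upstream bases are near copies and the annotated starts differ. How the authors' counting treats reads shared by such copies is not given in the sources used here, and the split of UMIs between Vpreb1a and Vpreb1b is uncertain. In the order of genes in RefSeq's table, 1 gene lies between Vpreb1a and Igll1.

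Igll1 had 1076 UMIs in 68 cells, with 1 to 82 UMIs in a cell that had any and a median of 12. Vpreb1a had 88 UMIs in 39 cells and Vpreb1b 96 UMIs in 33 cells. Of the 68 cells with Igll1, 49 also had a VpreB UMI and 19 did not, and 1 further cell had a VpreB UMI alone. A UMI of any of the 3 was found in 69 cells, all of them pan-B cells, which is 38.5% of the label (31.4% to 46.1%) and 67.0% of the pan-B cells (57.0% to 75.9%). The background, in fibroblast-labelled cells with a median of 9006.5 UMIs, was 12 of 8216 cells (0.146%). The share depends on depth. With each cell thinned to 1000 UMIs it was 21.8% of the label and 36.9% of the pan-B cells, against 0.0122% in fibroblast-labelled cells. Cells near the threshold were few, with 3 cells at 1 UMI and 7 at 2 UMIs.

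Mature genes were sparse in the same cells. Of the 6 measured genes of the mature set, Ms4a1 had 9 UMIs in 4 of the 103 pan-B cells, Fcer2 (CD23) 5 UMIs in 3 cells, Cxcr5 3 UMIs in 2 cells and Ccr6 1 UMI in 1 cell. Cr2 had 18 UMIs in 16 cells. Tnfrsf13c, the receptor of the survival factor BAFF, was the most abundant at 91 UMIs in 45 cells. Ighd, the 7th gene of the set, was not analysed here. A UMI of the set was found in 53 pan-B cells (51.5%, 41.4% to 61.4%) and in 56 labelled cells (31.3%, 24.6% to 38.6%), against 115 of 8216 fibroblast-labelled cells (1.40%). Thinned to 1000 UMIs, the share was 6.80% of the pan-B cells (2.78% to 13.5%) and 8.38% of the label (4.77% to 13.4%). In fibroblast-labelled cells it was 0.0853%. The label and the pan-B cells were drawn separately and their intervals overlap, so the order of these 2 shares is not read. With at least 2 UMIs asked for, it was 32.0% of the pan-B cells.

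Most pan-B cells with a mature UMI also had a surrogate light chain UMI, as did 67.0% of all pan-B cells. A mature UMI was found in 60.9% of the cells with and 32.4% of those without the surrogate light chain. Thinned to 1000 UMIs, these shares were 11.6% (8 cells) and 2.94% (1 cell). Of the 103 pan-B cells, 27 had surrogate light chain UMIs alone, 42 had UMIs of both sets, 11 had mature UMIs alone and 23 had neither. The 42 cells with both had a median of 20735.5 UMIs, the 27 with surrogate light chain alone 11621, the 11 with mature UMIs alone 8458 and the 23 with neither 5184. Tnfrsf13c had 82 of its 91 UMIs in cells with a surrogate light chain UMI. These cells also held 1261753 of the 1501825 UMIs of all genes in pan-B cells, so the split of Tnfrsf13c is not read as a difference. The 4 ranges are cuts on counts and not cell types.

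Cells with and without surrogate light chain UMIs differed in other precursor genes. Dntt had 51 UMIs in 8 pan-B cells, all 8 with surrogate light chain UMIs, and 1 of these cells held 37.3% of the UMIs. Il7r, the receptor through which stroma supports early B cells, had 172 CPM (150 to 196) in the 69 cells with the surrogate light chain and 58.3 CPM (31.9 to 97.8) in the 34 cells without. Lef1, a transcription factor of early lymphocytes, had 680 CPM (635 to 727) with and 221 CPM (165 to 289) without. Rag1 lay the other way, with 21.4 CPM (14.1 to 31.1) with and 158 CPM (112 to 217) without. Rag2, its partner in the recombinase, had 16.6 CPM (10.3 to 25.4) with and 58.3 CPM (31.9 to 97.8) without. The intervals of Il7r, Lef1, Rag1 and Rag2 cover counting error only. How many of all genes tested differ beyond such intervals was not counted. With each cell thinned to 1000 UMIs, the differences of Il7r and Lef1 were smaller, at 116 and 88.2 CPM for Il7r (8 and 3 UMIs) and 725 and 382 CPM for Lef1 (50 and 13 UMIs), while Rag1 stood at 58.0 and 294 CPM (4 and 10 UMIs).

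A Rag1 or Rag2 UMI was found in 42 pan-B cells, 22 with and 20 without surrogate light chain UMIs, which are 31.9% (21.2% to 44.2%) of 69 and 58.8% (40.7% to 75.4%) of 34. Elsewhere in this library a Rag UMI was found in 289 of 411 cells labelled thymocytes (70.3%) and 71 of 8216 fibroblast-labelled cells (0.864%). It was also found in 11 of the 76 labelled cells without pan-B UMIs (14.5%), so Rag UMIs are not particular to B-lineage cells. Thinned to 1000 UMIs, the shares of pan-B cells were 5.80% with and 29.4% without the surrogate light chain. Vpreb3 stood at 390 CPM with and 683 without, the transcription factor Myb at 835 and 925 and Sox4 at 468 and 825. Bach2, a repressor that delays plasma cell fate, stood at 1222 and 2608 CPM, and at 1246 and 3706 CPM after thinning. Kit, Flt3 and Cd93, found on the earliest precursors, had 6, 1 and 3 UMIs in all 103 cells, and Mme 6 UMIs. Of 11 precursor genes with at least 50 UMIs outside the surrogate light chain, 2 (Dntt and Lef1) were at least 3-fold higher with it and 1 (Rag1) at least 3-fold lower. Over all 5007 genes tested in the pan-B cells, 3.14% were at least 3-fold higher with the surrogate light chain and 1.54% at least 3-fold lower. Of the pan-B list, 0 of 12 passed in either direction.

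Cycling transcripts filled the label. A UMI of the 6-gene cycling set was found in 156 of 179 labelled cells (87.2%, 81.3% to 91.7%) and in 80 of 103 pan-B cells (77.7%, 68.4% to 85.3%), against 563 of 8216 fibroblast-labelled cells (6.85%). Thinned to 1000 UMIs, the shares were 64.2% of the label, 58.3% of the pan-B cells and 0.853% of the fibroblast-labelled cells. Among the other labels of at least 50 cells, the share without thinning reached 80.3% in the epithelial label whose name marks proliferation and 78.2% in the myeloid label, at medians of 16804.5 and 9510 UMIs. Mki67, a protein of dividing nuclei, had 810 CPM (765 to 857) in the pan-B cells, 938 in the 76 others and 3.38 in the fibroblast labels. Top2a, the topoisomerase that untangles replicated DNA, had 783, 1003 and 1.58 CPM in the same order.

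The S phase list, 43 genes of DNA replication, had a level of 5364 CPM (5279 to 5450) in the labelled cells, 6770 CPM (6639 to 6903) in the pan-B cells, 3804 CPM in the 76 others and 524 CPM in the fibroblast labels. The G2/M list had 12688 CPM (12558 to 12819) in the labelled cells and 11575 CPM (11403 to 11748) in the pan-B cells. The pan-B cells thus had the higher S list level and the 76 others the higher G2/M list level, each beyond its counting interval. Over the pan-B cells the S list ranged from 0 to 14011 CPM with a median of 5635, and the G2/M list from 0 to 31141 CPM with a median of 7488. The 95th percentile of fibroblast-labelled cells was 1075 CPM for the S list and 1266 CPM for the G2/M list, and 75 and 88 of the 103 pan-B cells lay above it. No phase was called for any cell.

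Cycling and the surrogate light chain went together among pan-B cells. The S list stood at 7475 CPM (7324 to 7627) in the 69 cells with surrogate light chain UMIs and at 3070 CPM (2852 to 3300) in the 34 without, a ratio of 2.43 (2.26 to 2.63). The per-cell medians were 7450 and 579 CPM. The G2/M list stood at 11941 CPM (11751 to 12134) with and 9647 CPM (9258 to 10048) without, a ratio of 1.24 (1.18 to 1.29), with per-cell medians of 9174 and 1812 CPM. The range without the surrogate light chain was wide, since its highest cell, at 14011 CPM of the S list, was also the highest of all 103. Above the fibroblast percentile for the S list lay 61 of 69 cells with and 14 of 34 without the surrogate light chain. For the G2/M list 67 of 69 and 21 of 34 lay above it.

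**Figure D2:**
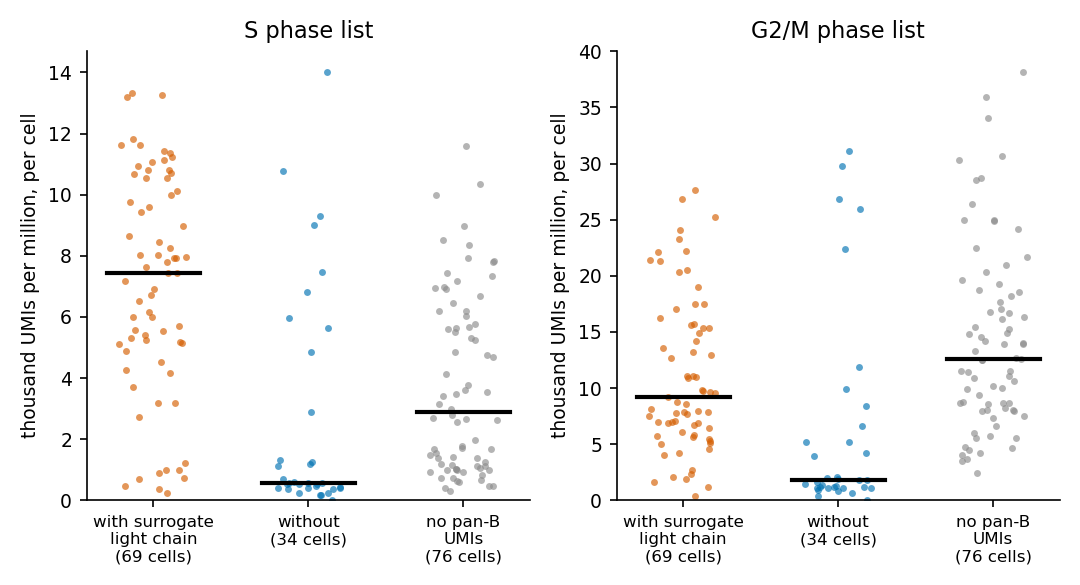
Level of the S phase list (left) and of the G2/M list (right) in CPM of each cell divided by 1000, 1 point per cell with the median as a bar, for the 69 pan-B cells with and the 34 without surrogate light chain UMIs and for the 76 labelled cells without pan-B UMIs. Most of the 34 cells lie near 0 on both axes with a minority as high as the 69, and the 76 have the highest median of the G2/M list.

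A cycling-set UMI was found in 64 of the 69 cells with the surrogate light chain (92.8%, 83.9% to 97.6%) and in 16 of the 34 without (47.1%, 29.8% to 64.9%). Median depth moved with this split, at 15984 UMIs with and 5506 without. Thinned to 1000 UMIs the shares were 71.0% (58.8% to 81.3%) and 35.3% (19.7% to 53.5%). By range, the share was 85.2% of the 27 cells with surrogate light chain alone, 97.6% of the 42 with both sets, 72.7% of the 11 with mature UMIs alone and 34.8% of the 23 with neither, and 55.6%, 71.4%, 45.5% and 30.4% after thinning. In the whole label the S list stood at 7475 CPM with and 3694 CPM without the surrogate light chain, and the G2/M list at 11941 and 13279 CPM, so the order for the G2/M list turned with the 76 cells included.

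Genes of DNA synthesis were higher with the surrogate light chain. Of 42 S phase genes with at least 50 UMIs, 14 were at least 3-fold higher in pan-B cells with the surrogate light chain and 0 at least 3-fold lower, beside backgrounds of 3.14% and 1.54%, and the median ratio was 2.51 against 1.04 for all genes tested. The 14 include Pcna, the sliding clamp of DNA polymerase (481 CPM with and 150 without), the helicase subunits Mcm2 (147 and 45.8) and Mcm4 (185 and 37.5), the clamp loader subunit Rfc2 (144 and 29.2) and the helicase activator Cdc45 (94.3 and 25.0). Of 49 G2/M genes 0 passed in either direction, with a median ratio of 1.15. The count of 14 fell to 8 among cells of at least 5000 UMIs and to 6 when 2 surrogate light chain UMIs were asked for, while the ratio of the list level was 2.28 and 2.09. Leaving out every cell with 3 UMIs of another type's list kept only 16 pan-B cells, of which 25.0% had a surrogate light chain UMI and 37.5% a cycling-set UMI, and there 0 S phase genes passed while the ratio of the list level was 2.30. That filter counts Cd3g, and without Cd3g it kept 29 pan-B cells, with 48.3%, 51.7%, 10 genes and 3.40. Gene levels moved with the stricter filter too: in the 16 cells Jchain was 8.78-fold, Mzb1 6.11-fold, Vpreb1b 6.04-fold and Igll1 3.56-fold lower than in the 103, and Rag1 was 5.38-fold higher. The 16 cells were also shallower, with a median of 5427 UMIs against 13023 in the 103. Of the 16, 4 had the surrogate light chain and 12 did not. The part of depth in these shifts was not tested.

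Cells low in both readouts held most of the Rag1 transcripts. With 10 cycling-set UMIs as the threshold, 53 pan-B cells had the surrogate light chain and at least 10 cycling UMIs, 16 had the surrogate light chain and fewer, 9 had no surrogate light chain and at least 10, and 25 had neither. Their median depths were 19918, 6987.5, 12055 and 5184 UMIs. Rag1 stood at 9.75 CPM (4.87 to 17.4), 120 CPM (68.5 to 195), 27.2 CPM (5.62 to 79.6) and 269 CPM (188 to 374) in this order. In both pairs the cells with few cycling UMIs had the higher level. Dntt stood at 20.4 and 210 CPM in the first 2 sets and at 0 UMIs in the last 2. Bach2 stood at 1196, 1446, 1335 and 3685 CPM, and Ebf1 at 5354, 5139, 4442 and 9255 CPM, so the 25 cells were highest for both. Cd74 was also highest in the 25 cells, but their class II UMIs lay mostly in 4 cells, with 412, 161, 154 and 19, none of which had a Rag UMI, and the next cell had 6. Of the 18 pan-B cells with neither a surrogate light chain nor a cycling UMI, 13 had a Rag UMI.

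**Figure D3:**
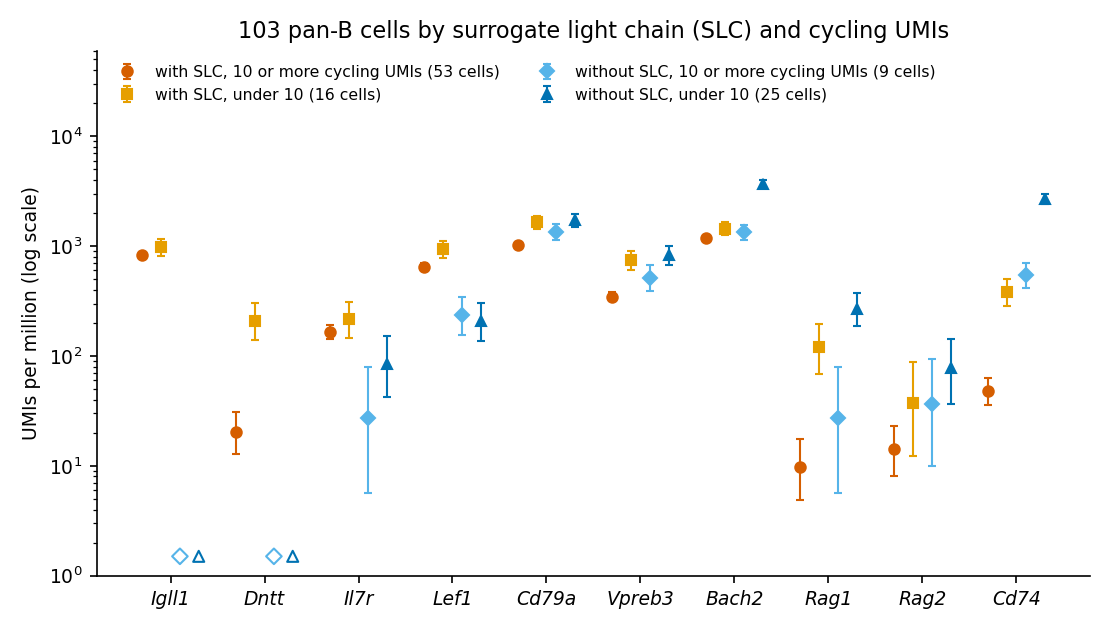
Level of 10 genes (CPM, log scale) in the 103 pan-B cells divided by surrogate light chain UMIs (any or none) and by cycling-set UMIs (10 or more, or fewer), with bars for the exact Poisson 95% interval and open symbols at the foot of the axis for 0 UMIs. Rag1 and Bach2 are highest in the 25 cells with neither, at 269 and 3685 CPM, Cd74 is highest there through 4 cells without Rag UMIs, and Dntt is highest in the 16 cells with the surrogate light chain and few cycling UMIs.

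Of the genes that restrain division none reached 3-fold. Over the 8 genes of the quiescence list the median ratio with over without was 0.420, against 1.04 for all genes tested, and 0 of 8 passed in either direction, beside backgrounds of 3.14% higher and 1.54% lower, at which a count of 0 says nothing of the list. Btg2, an antiproliferative gene, stood at 594 CPM with and 1383 without, and the transcription factor Foxo1, which drives Rag expression in precursors, at 109 and 267. The cyclin-dependent kinase inhibitor Cdkn1b stood at 201 and 258 CPM. Of 11 signalling genes of the pre-B cell receptor with at least 50 UMIs, 0 were 3-fold higher and 1 was 3-fold lower with the surrogate light chain, beside the same backgrounds. That gene was the kinase Syk, at 134 and 425 CPM. Blnk (758 and 837) and Blk (162 and 204) lay closer. The chemokine receptor Cxcr4, which holds precursors near stroma, stood at 206 and 312 CPM, while Ccr7 had 3 UMIs and Ccr9 1 UMI in all 103 cells.

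The genes highest with over without the surrogate light chain in pan-B cells were of both kinds, some found in many cells and some in few. Stat4, a transcription factor of cytokine signalling, had 169 UMIs in 39 cells with and 3 UMIs in 2 cells without. Dlk1, a membrane protein related to Notch ligands, had 151 UMIs in 30 cells and 3 UMIs in 2 cells, and Fabp5, a fatty acid binding protein, 170 UMIs in 42 cells and 4 UMIs in 3 cells. Cxcl14 (190 UMIs) and Krt15 (114 UMIs) came from 6 cells each, Obp3 (105 UMIs) from 8, Nrg1 (100 UMIs) from 12 and Prkg1 (94 UMIs) and Gsta1 (90 UMIs) from 13 cells each. Ogn had 118 UMIs in 26 cells. Fibroblast transcripts moved with this split, since Dcn stood at 762 CPM with and 137 without, and the fibroblast list at 1273 and 537 CPM, although the per-cell medians of that list were 199 and 435 CPM. In the 85 cells under 10 UMIs of every other list, Stat4, Dlk1 and Fabp5 kept ratios of 7.03, 9.57 and 7.91, and Nrg1, Obp3, Gsta1 and Ogn had ratios under 1 with values below 3 UMIs set to that floor.

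The genes lowest with the surrogate light chain belonged to class II presentation and to a few cells. All 5 class II genes with at least 50 UMIs passed, beside a background of 1.54%. Cd74, the chaperone of class II molecules, had 105 UMIs in 13 cells with (83.2 CPM) and 412 UMIs in 12 cells without (1716 CPM), and 1 cell held 44.7% of the 517 UMIs. Among cells with the surrogate light chain, class II UMIs lay mostly in 4 cells, with 144, 104, 23 and 21 UMIs of 5 class II genes, which also held 54, 44, 18 and 55 epithelial UMIs, and the next cell had 4. The Cd74 ratio with over without was 0.0485, and it was 0.00426 without cells holding 10 UMIs of another type and 0.523 in the 16 cells left by the filter at 3 such UMIs. RT1-Da stood at 47.6 and 604 CPM, RT1-Db1 at 51.5 and 750 CPM and RT1-Ba at 38.8 and 521 CPM. In those 16 cells the ratios of RT1-Da and RT1-Db1 turned to 1.57 and 1.26. Igha, the constant gene of IgA, had 0 UMIs with and 97 UMIs in 5 cells without, at least 170-fold lower with it against a floor of 3 UMIs over the group. Ltb, a lymphotoxin chain, had 5 and 45 UMIs, Rgs1 8 and 83, Ccl3 3 and 57, Il1rapl1 2 and 74 and Ntng1 5 and 90. Cd69, Cd83 and Mzb1 also lay at least 3-fold lower with the surrogate light chain.

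Mature features met in 5 cells. At least 10 UMIs of 5 class II genes were found in 10 pan-B cells. Of these, 5 also had at least 10 epithelial UMIs. The other 5 had no surrogate light chain UMI and no Rag UMI, all had a UMI of the mature set and of Igha, and they were the only pan-B cells with Igha. Their class II UMIs were 412, 161, 155, 154 and 19, their mature-set UMIs 7, 5, 2, 6 and 1, and their Igha UMIs 38, 1, 46, 3 and 9 in the same order. Jchain had 89, 0, 99, 9 and 0 UMIs in them. A cycling-set UMI was found in 3, with 73 UMIs in 1 and 1 UMI in each of the other 2. The cells were singled out after their values had been seen. They are 4.85% of the pan-B cells.

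CD45 transcripts were present in these sorted cells. Ptprc, the CD45 gene, had 299 UMIs in 87 of the 103 pan-B cells (84.5%, 76.0% to 90.9%) at 199 CPM (177 to 223), against 27.3 CPM in the 76 others and 1.14 CPM in the fibroblast labels. The level was 173 CPM with and 337 CPM without the surrogate light chain. It stood at 853 CPM in the cells of this library labelled thymocytes and at 680 CPM in B cells of the thymocyte library. Surface CD45 was not measured in these files. T cell transcripts also occurred, since Cd3g had 411 UMIs in 85 pan-B cells, while Cd3d had 62 and Cd3e 49 UMIs. There were 8.39 Cd3g UMIs per Cd3e UMI in pan-B cells and 2.54 in cells labelled thymocytes.

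B cells of the thymocyte library were measured beside these. That library has a label that joins B and myeloid cells, with 170 of 8546 annotated cells, of which 37 had at least 3 UMIs summed over 4 B cell genes, among them Cd79a, Cd79b and Ms4a1, with a median of 14564 UMIs. The 2 libraries differ in digestion and sorting, so levels are set side by side without a comparison of the tissue. In the 37 cells no surrogate light chain UMI was found, which allows a share of cells with such a UMI of up to 8.11% (3 counts of the total), and Rag1 had 9 UMIs in 2 cells. Ms4a1 was at 248 CPM (209 to 293) in 28 of 37 cells, against 5.99 CPM in 4 of 103 in the stromal library. Ms4a1 was also used to choose the 37 cells.

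Genes not used to choose the 37 cells were also read. Cr2 had 264 CPM in the 37 cells and 12.0 in the 103, the B cell scaffold Bank1 416 and 18.0, and the IgM receptor Fcmr 313 and 25.3. Cd74 had 5829 CPM in all 37 cells and 344 CPM in 25 of 103. Jchain had 16976 and 743 CPM, and Igha 23570 CPM in 25 cells and 64.6 CPM in 5. These levels of the 37 cells came mostly from a few of them, since the constant genes measured had a median over the 37 cells of 297 CPM and a highest cell of 321384 CPM. The plasma cell list, which holds Jchain, had medians of 934 CPM over the 37 and 708 CPM over the 103. Myb had 59.4 CPM in the 37 cells and 849 in the 103, Cd24 14.0 and 1153, and Vpreb3 52.4 and 437. Cd79a, which helped to choose both sets, stood at 1092 CPM (1008 to 1181) in the 37 and 1169 (1115 to 1225) in the 103.

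Cycling transcripts were fewer in the thymocyte library. A cycling-set UMI was found in 12 of the 37 cells (32.4%, 18.0% to 49.8%) and in 2 of 37 (5.41%) after thinning to 1000 UMIs, against 77.7% and 58.3% of the stromal pan-B cells. Mki67 stood at 96.1 and 810 CPM and Pcna at 29.7 and 428 CPM. The S list stood at 667 CPM (602 to 738) and the G2/M list at 2348 CPM (2225 to 2477) in the 37 cells. The 37 cells had 0 UMIs of all 7 fibroblast genes, while the 103 had a fibroblast list level of 1155 CPM. Summed levels of lists of blood cell types were higher in the 37 cells. The myeloid list stood at 1221 CPM in the 37 (from 9 cells) and 60.6 CPM in the 103. The T cell list stood at 795 and 452 CPM and the plasmacytoid dendritic list at 2464 and 553 CPM. Per-cell medians went the other way for the myeloid list (0 and 32.1 CPM) and the T cell list (110 and 371 CPM). For the plasmacytoid dendritic list they were 1026 and 545 CPM. A UMI of the myeloid list was found in 9 of the 37 cells. The T cell list had a UMI in 28 of them and at least 3 UMIs in 13. The part of such transcripts in the differences above was not tested.

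**Figure D4:**
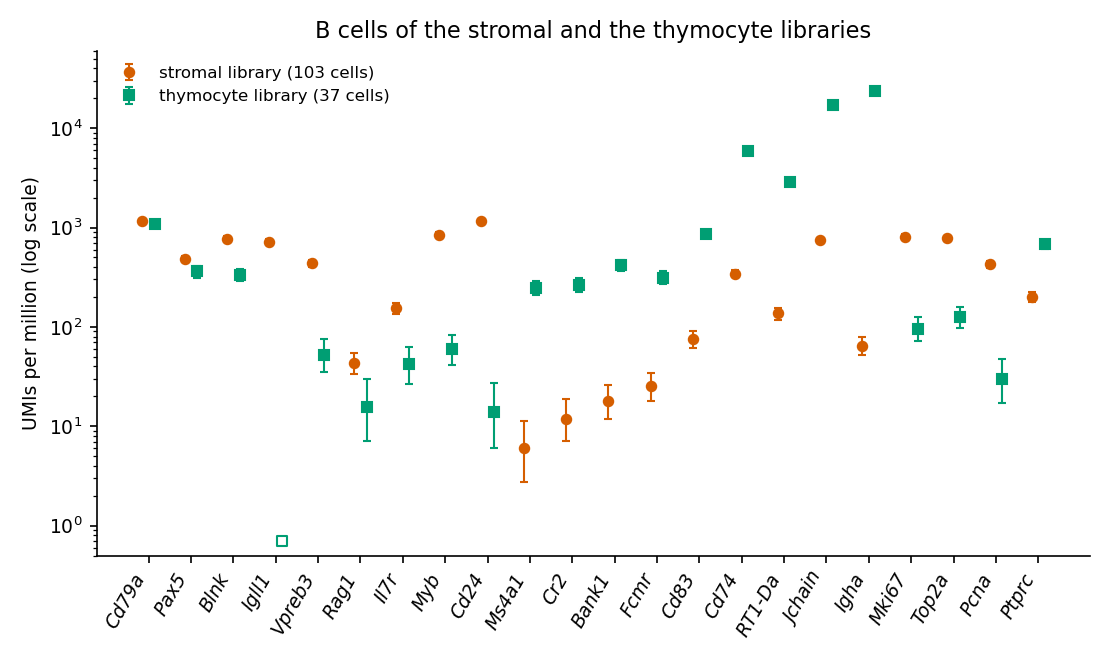
Level of 22 genes (CPM, log scale) in the 103 pan-B cells of the stromal library and the 37 B cells of the thymocyte library, with bars for the exact Poisson 95% interval and an open symbol at the foot of the axis for 0 UMIs. Igll1, Vpreb3, Myb, Cd24 and the 3 cycle genes are higher in the stromal cells, and Ms4a1, Cr2, the class II genes, Jchain and Igha in the thymocyte library.

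Among all 179 labelled cells, the comparison by surrogate light chain was filled by the 76 cells of other types. Of 7783 genes tested, 2.65% were at least 3-fold higher and 14.8% at least 3-fold lower in the 69 cells with surrogate light chain UMIs. The lowest were Car1, Ahsp and Hbb-bs, genes of red cell precursors whose UMIs came from 2, 4 and 2 cells, and the matrix and fibroblast genes Mfap5 (1451 UMIs in 41 cells without), Postn (632 in 45), Sema3c (430 in 31) and Tnfaip6 (282 in 34), with Tubb6, Car2 and Creb5. Car1 had 0 UMIs with and 492 without the surrogate light chain. The highest were Dlk1, Stat4, Il7r, Tmprss3, Slc4a10, Cd24, Smim22, Emid1, Lef1 and Tnfrsf13c. Il7r had 217 UMIs in 58 cells with and 15 UMIs in 9 cells without, and Cd24 1573 UMIs in 68 cells and 160 UMIs in 30 cells.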

How the data were processed

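Both 10x Genomics libraries of Lewis rat thymus were used, a stromal library sorted for CD45-negative cells and a thymocyte library, each 1 sample. For each barcode the authors deposited gene counts in UMIs. Cell Ranger 8.0.0 produced them, per the file headers. They also deposited cell annotations that include the percent of mitochondrial UMIs, as deposited. Seurat 5.3.0 and mRatBN7.2 are named in the submitters' processing notes. Annotated cells had at least 501 genes and at most 4.99% mitochondrial UMIs. Doublets were neither called nor removed here.

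Counts were summed over cells and divided by their summed total (CPM), with exact Poisson intervals. Shares have Clopper-Pearson intervals, and a count of 0 is given with the limit of 3 counts of the total. Thinning drew 1000 UMIs per cell without replacement (seed 11), with a separate draw for each set of cells, so counts of thinned subsets need not add up; 13 fibroblast-labelled cells were shallower and left out. Genes were called at 3-fold, with values below 3 UMIs set to that floor. Of 34034 feature names, 29433 matched RefSeq symbols of GRCr8. Ighm, Ighd and Igkc were not analysed here, values of some listed genes are not reported here, and 2 of 13 constant genes (Igha and Iglc1) were. The gene ratio script was tested on simulated data.

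The cells and the gene lists were chosen with earlier results of these data known. Named genes were list members with at least 20 UMIs in the labelled cells (up to 30 by level) and defining members near 0, the 15 genes with the highest ratio to the highest other label (at least 100 UMIs, a UMI in 25% of cells), and the 10 highest and 10 lowest between cells with and without the surrogate light chain (at least 50 UMIs). Alternatives changed the cells kept, the depth, the UMI threshold and the scaling. Python 3.11.15, NumPy 2.4.6, SciPy 1.17.1 and pandas 2.3.3 were used.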

Additional observations from a re-analysis of the deposited data

Results flagged for a closer look

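The stromal library also holds 2934 barcodes without an annotation, which no comparison above used. At least 3 pan-B UMIs were found in 10 of them (0.341%, exact 95% interval 0.164% to 0.626%), at a median of 1219.5 UMIs over the 2934 barcodes, and 3 of the 10 had a surrogate light chain UMI. The share in fibroblast-labelled cells, at a median of 9006.5 UMIs, was 3 of 8216 (0.0365%).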

How the results depend on the processing

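No paired analysis was possible because a single sample stood for a group. The division by pan-B UMIs, the filter at 10 UMIs of another type, the filter without Cd3g and the minimum of 5000 UMIs were chosen after seeing the data. Values moved most with the filter on other types and with depth, and the cause was not tested. Shares of cells with a UMI were lower when cells were thinned to fewer UMIs, and 1 library per group leaves no measure of variation between animals.

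Restricting the label to pan-B cells moved its share of annotated cells to 0.779%, the surrogate light chain share to 67.0%, the mature share to 51.5%, the cycling share to 77.7%, the precursor and mature list levels to 5833 and 728 CPM, and the S and G2/M list ratios with over without the surrogate light chain to 2.43 and 1.24.

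Without cells holding 3 UMIs of another type, the surrogate light chain, mature and cycling shares were 23.5%, 17.6% and 41.2% of the labelled cells and 25.0%, 18.8% and 37.5% of the pan-B cells, the precursor list level 9552 and 9583 CPM, the mature list level 993 and 1005 CPM, the labelled S list ratio 2.23, the G2/M list ratios 1.88 and 1.88, and 14 genes led in either set. RT1-Da and RT1-Db1 turned to ratios of 1.57 and 1.26. The pan-B cells left by this filter had a median of 5427 UMIs. With Cd3g not counted, the cycling share was 54.8% of the labelled cells, and the 3 shares 48.3%, 34.5% and 51.7% of the pan-B cells, the precursor level 7288 and 7347 CPM, the mature level 855 and 868 CPM, the S ratios 2.93 and 3.40, the G2/M ratios 1.48 and 1.54, and 34 and 33 genes led.

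Without cells holding 10 UMIs of another type, the 3 shares of the labelled cells were 60.9%, 47.1% and 73.6%, the precursor level 6262 and 6269 CPM, the mature level 842 and 844 CPM, the S ratios 2.69 and 2.74 and the G2/M ratios 1.35 and 1.36. Gsta1, Nrg1, Obp3 and Ogn turned to 0.409, 0.818, 0.409 and 0.981.

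Among cells of at least 5000 UMIs the cycling share was 92.5% and 86.5%, the precursor level 3326 and 5616 CPM and the pan-B G2/M ratio 1.08. Thinned to 1000 UMIs the shares were 21.8%, 8.38% and 64.2% of labelled and 36.9%, 6.80% and 58.3% of pan-B cells. At 3000 UMIs the mature share was 10.2% and 22.7%. Labelled and pan-B cells were drawn separately, so thinned shares of the 2 sets are not compared. With 2 UMIs asked for, the mature share was 18.4% and 32.0%, the pan-B S and G2/M ratios 2.09 and 1.18, and Gsta1 turned to 0.962.

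Averaging the cells' own CPM gave precursor levels of 4577 and 7131 CPM, mature levels of 585 and 915 CPM, G2/M ratios of 0.933 and 1.74 and a pan-B S ratio of 2.69. Totals without abundant gene groups gave 4169 and 7289, 539 and 909 CPM, G2/M ratios of 0.982 and 1.30 and a labelled S ratio of 2.21. Without the cells above the 95th percentile of UMIs, the mature level was 477 and 781 CPM, the pan-B precursor level 5971 CPM and the labelled S ratio 2.26. With at least 10 pan-B UMIs the G2/M ratio was 1.18. Levels of named genes lay outside their main counting interval in 716 values under the alternatives and inside it in 690. In pan-B cells the S and G2/M ratios stayed above 1 under every alternative run.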

Other observations

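Survival and chemokine receptor genes were also measured in the pan-B cells. Of 4 survival genes with at least 50 UMIs, 0 differed by 3-fold between cells with and without the surrogate light chain, and the same held for 4 chemokine and cytokine receptor genes. Over all genes tested 3.14% were higher and 1.54% lower, so counts of 0 among 4 say nothing of these lists. Of 8 handling and heat shock genes 0 passed, with a median ratio of 0.551 against 1.04 for all genes tested.

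Of the 374 cells of the epithelial cluster named TEC-d, 14 had at least 3 pan-B UMIs (3.74%, 2.06% to 6.20%), and 1 of these had a surrogate light chain UMI.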
